A study of Mus musculus with 4 samples.

Results

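The genes described here are the granins and the enzymes that cut prohormones into active peptides. They were chosen by name as 10 of the 31054 features measured: Chga, Chgb, Scg2, Scg3, Scg5, Vgf, Pcsk1n, Pcsk1, Pcsk2 and Cpe. All 10 were present in each of the 4 libraries and no filter on low values removed any of them. Their RNA was counted in single cells of the mouse intestinal epithelium and is described by library and by the hormone gene that dominates each cell.

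Every library came from mice with the Bmi1-GFP genotype, a reporter for cells that transcribe Bmi1, and the series holds 1 library for each of 4 groups. The embryos were at day 12.5 (E12.5) or 17.5 (E17.5), and of the adult libraries 1 is labelled as irradiated. Per the labels' protocols, the E12.5 tissue was dissected intestine and the later tissue small intestine, epithelial cells were isolated by fluorescence-activated sorting, and the libraries used the 10x Chromium 3' chemistry, version 3. The sorting gates, whether GFP was one of them, the number and sex of the animals, the radiation dose and the time after it are not given in the sources used here. With 1 library per group no test between groups was possible and no p-value is given: cells of 1 library are not replicates, and every interval below covers counting error only.

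Enteroendocrine cells are scattered hormone-secreting cells of the gut lining. They arise from progenitors that pass through a phase of Neurog3 expression, and they store peptides or serotonin in dense-core granules. Granins are acidic proteins that help to form these granules and are themselves cut into peptides. Inside the granule the prohormone convertases PC1/3 (Pcsk1) and PC2 (Pcsk2) cut the precursors at pairs of basic residues, and carboxypeptidase E (Cpe) trims the basic residues left behind. The 7B2 protein (Scg5) accompanies PC2 and proSAAS (Pcsk1n) can inhibit PC1/3.

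The promoters are shown because 4 of the genes hold a match to the same element close to the start of transcription. Sequences are from RefSeq (GRCm38.p6), which gave a promoter for 8 of the 10 genes; no Cpe or Vgf entry was matched. Each run below is 30 bases of the gene's own strand, 5′ to 3′, with the match to TGACGTNA in capitals. TGACGTCA is the palindrome known as the cAMP response element.
Chga, chr12:102554886-102554915, + strand: gggcggtcctaTGACGTAAtttcctgggtg
Chgb, chr2:132781559-132781588, + strand: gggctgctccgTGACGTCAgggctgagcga
Scg2, chr1:79440076-79440105, - strand: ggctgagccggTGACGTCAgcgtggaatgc
Pcsk1, chr13:75089768-75089797, + strand: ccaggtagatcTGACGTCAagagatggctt

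The matches begin 44 bases before the RefSeq start in Chga, 72 in Chgb, 68 in Scg2 and 78 in Pcsk1. In the GENCODE M21 annotation the Chga and Pcsk1 windows lie upstream of the gene, and the Chgb and Scg2 windows fall in the 5' UTR of a longer transcript model. In the 250 bases before the start, searched on both strands, TGACGTCA was found in 3 of the 8 promoters against 1.55% of all 32851. TGACGTNA, which includes it, was found in 4 of 8 against 2.52%, and TGACGT, which lies inside both, in 5 of 8 (the fifth being Scg5) against 6.47%. The bHLH motif CANNTG was present in 6 of 8 and in 66.2% of all promoters. A match describes these letters and says nothing of whether a factor binds there.

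After removal of cells under 500 genes or over 20% mitochondrial counts, 3184 to 4602 cells were kept per library, with a median of 18638 UMIs (tagged RNA molecules) in each cell at E12.5 and 11499 at E17.5. The adult library had 3700 and the irradiated one 8786. Library pairs shared 6 to 12 barcodes. All 6 general epithelial markers were detected in each library. The E17.5 library also held 547 cells with exocrine pancreas (acinar) markers, at 10937 CPM (UMIs of a gene per 1000000 UMIs) over the acinar list, and its list of 9 islet markers summed to 7049 CPM against 547 in the adult and 917 in the irradiated library. Results at E17.5 that touch this are therefore given with cells split by whether the islet list or a list of 8 intestinal genes (Cdx1, Cdx2, Vil1 and others) had more UMIs. A cell was assigned to the hormone gene with the most UMIs if that gene had at least 10 UMIs and 1% of the cell's total. Such hormone-dominant cells numbered 8 (E12.5), 1615 (E17.5), 2237 (adult) and 2161 (irradiated). Cells without a dominant peptide but with at least 3 UMIs of Tph1, the serotonin-synthesis enzyme, are called Tph1+. Those with at least 2 UMIs of Neurog3 are called Neurog3+. Further cells were named from marker lists, as tuft-like, enterocyte-like and so on.

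Over all cells of a library, RNA of the 10 genes took 0.00578% of the E12.5 UMIs, 0.312% of the E17.5, 1.15% of the adult and 2.13% of the irradiated UMIs. Chromogranin A (Chga, ENSMUSG00000021194, chromosome 12, 102554969 to 102565028, + strand, GRCm38), the best known marker of endocrine granules, stood at 1.73 CPM (E12.5), 448 (E17.5), 2048 (adult) and 4281 (irradiated). The other granins also had their lowest levels at E12.5, with Chgb at 8.04, 1789, 7102 and 13474 CPM, Scg2 at 0.449, 231, 804 and 1222, Scg3 at 1.25, 84.9, 171 and 229, and Vgf at 0.0674, 18.1, 58.1 and 81.9 in the same order of libraries. The same held for the helpers Scg5, at 1.90, 73.3, 181 and 272 CPM, and Pcsk1n, at 3.93, 146, 291 and 543, and for the convertase Pcsk1, at 0.516, 62.5, 227 and 321. Carboxypeptidase E (Cpe, ENSMUSG00000037852, chromosome 8, 64592542 to 64693054, - strand) had the narrowest span across the libraries, with 37.9, 218, 567 and 837 CPM. Pcsk2 (ENSMUSG00000027419, chromosome 2, 143546156 to 143816285, + strand) followed another order, with 1.94, 48.4, 6.49 and 5.56 CPM. Thus 9 of the 10 genes were highest in the irradiated library and Pcsk2 was highest at E17.5.

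Levels were compared as log2 ratios of CPM + 1, over genes with at least 50 UMIs in the 2 groups together, and a gene is called higher or lower past 2-fold. Between E12.5 and E17.5 all 10 genes were more than 2-fold higher (of all genes tested, 15.5% were higher and 15.8% lower), with a median log2 ratio of 5.08 against -0.17 over all genes. From E17.5 to adult, 8 were higher (13.8% of all genes) and Pcsk2 was lower (14.7% of all genes were lower). Between adult and irradiated adult 1 was higher and 0 lower (2.94% and 5.14% of all genes), Chga at a log2 ratio of 1.06. In levels over all cells, more cells of a type and more RNA per cell cannot be told apart, and hormone-dominant cells were 0.189%, 35.1%, 59.1% and 67.9% of cells in the same order of libraries. Within hormone-dominant cells alone only Pcsk2 differed more than 2-fold between E17.5 and adult (0 higher and 1 lower, beside 11.6% and 10.0% of all genes), and none did between adult and irradiated adult (beside 1.76% higher and 3.27% lower).

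**Figure D1:**
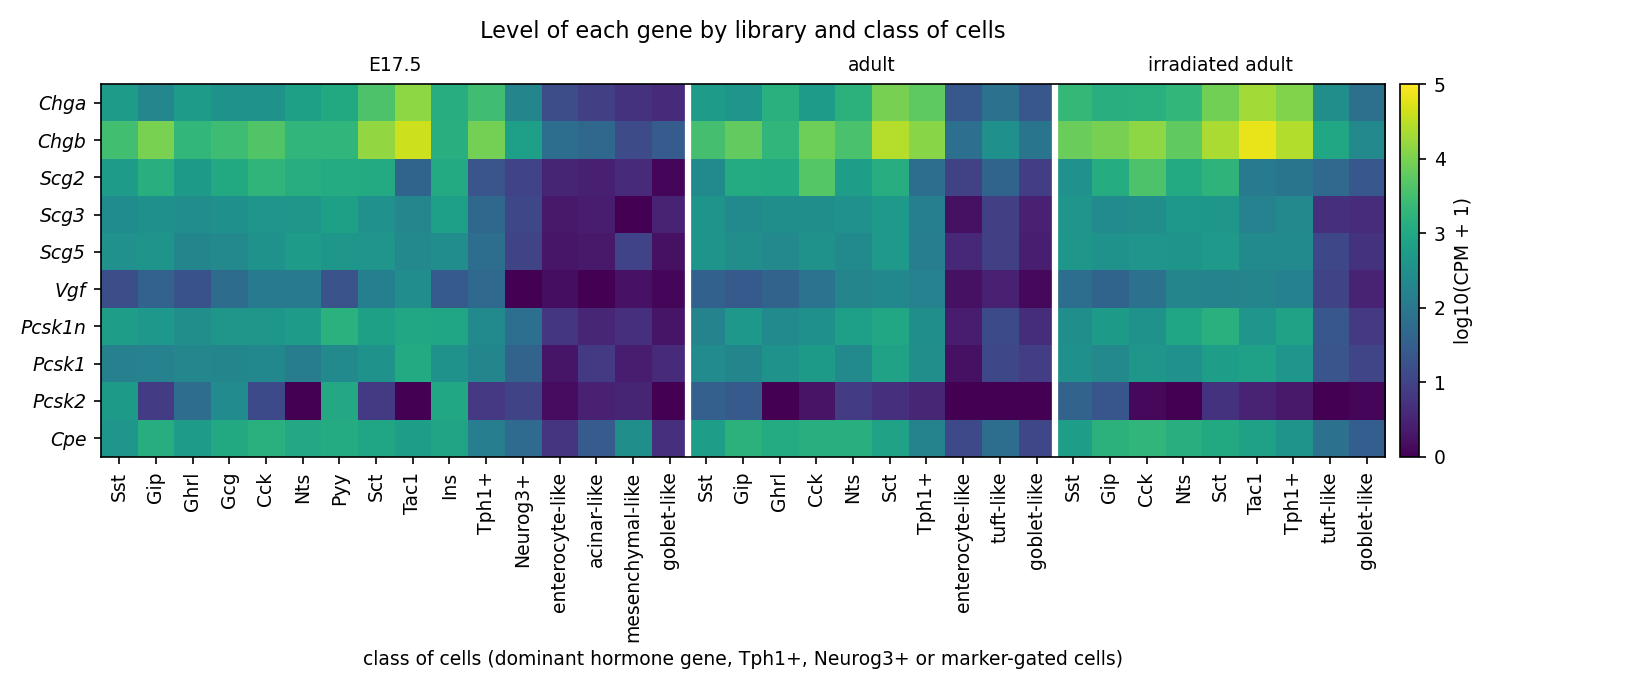
Level of each gene as log10(CPM + 1) (colour) in each class of at least 30 cells (columns) of the E17.5, adult and irradiated adult libraries. Chga is brightest in the Sct, Tac1 and Tph1+ columns of each library, Chgb in the Tac1 column (Sct in the adult, which has no Tac1 column), Scg2 and Cpe are dark in Tph1+ cells, and Pcsk2 is brightest in the Sst, Gcg, Pyy and Ins columns of E17.5.

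Levels differed widely with the dominant hormone of the cell. Ranges and orders over classes are given for classes of at least 30 cells. At E17.5 Chga ranged from 208 CPM (95% Poisson interval 183 to 236) in the 108 Gip-dominant cells to 14361 CPM (13898 to 14835) in the 45 cells dominated by Tac1, the substance P precursor. The next were Sct-dominant cells (secretin) at 4034 CPM, Tph1+ cells at 2891, Ins at 1290 and Pyy at 1089, and the remaining 5 classes lay between 357 and 696. The Cck (351 to 401) and Gcg (322 to 395) intervals overlapped, and so did those of Sst and Ghrl, at 562 and 554 CPM. Of the 45 Tac1-dominant cells 40 also had at least 3 Tph1 UMIs, and in 38 Tac1 made up under 2% of the cell's UMIs.

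In the adult, Chga ranged from 431 CPM in Gip-dominant cells to 9564 CPM in Sct-dominant cells, with the overlapping Sst (572) and Cck (576), then Ghrl at 1467, Nts at 1639 and Tph1+ at 5790. In the irradiated adult it ran from 1383 CPM in Gip-dominant to 20069 CPM in the 44 Tac1-dominant cells. Of these 43 also had at least 3 Tph1 UMIs, and in 39 Tac1 made up under 2% of the cell's UMIs. Gip-dominant cells, which make the incretin GIP, were the lowest of the classes with at least 30 cells in every one of these 3 libraries, and the ratio of highest to lowest class was 68.9-fold, 22.2-fold and 14.5-fold.

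Chromogranin B (Chgb, ENSMUSG00000027350, chromosome 2, 132781278 to 132795079, + strand) had the same highest classes but not the same lowest. At E17.5 it was lowest in Ins-dominant cells (1408 CPM) and highest in Tac1-dominant cells (40959 CPM), with 9672 CPM in the Gip-dominant cells where Chga was lowest. In the adult it ran from 1966 CPM in Ghrl-dominant to 27284 in Sct-dominant cells, and in the irradiated library from 5969 in Nts-dominant to 69000 in Tac1-dominant cells. Chga and Chgb together took 8.91% of all UMIs in the 44 irradiated Tac1-dominant cells. After each cell was thinned to 2000 UMIs, Chgb was detected in 98.8% of adult hormone-dominant cells (exact Clopper-Pearson 95% interval 98.2 to 99.3) and Chga in 53.8% (51.4 to 56.2). Adult tuft-like cells, which should lack both, gave 48.2% and 15.0%, and the Chgb share in hormone-dominant cells is to be read against that. Without thinning the shares were 98.7% and 65.0%, against 72.4% and 25.6%, at a median of 3236 UMIs in hormone-dominant and 4069 in tuft-like cells.

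Secretogranin II (Scg2, ENSMUSG00000050711, chromosome 1, 79434669 to 79440120, - strand), the precursor of secretoneurin, had another order of classes. It was lowest in Tph1+ cells, at 20.01 CPM (13.3 to 28.9; E17.5), 62.2 CPM (51.8 to 74.0; adult) and 86.8 CPM (80.0 to 94.0; irradiated). It was highest in Cck-dominant cells in each library, at 1843, 4844 and 4102 CPM, which is 92.1-fold, 77.9-fold and 47.3-fold above the lowest class. Tac1-dominant cells, highest for Chga and mostly Tph1-positive as given above, held only 39.5 CPM of Scg2 at E17.5 and 112 in the irradiated library.

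**Figure D2:**
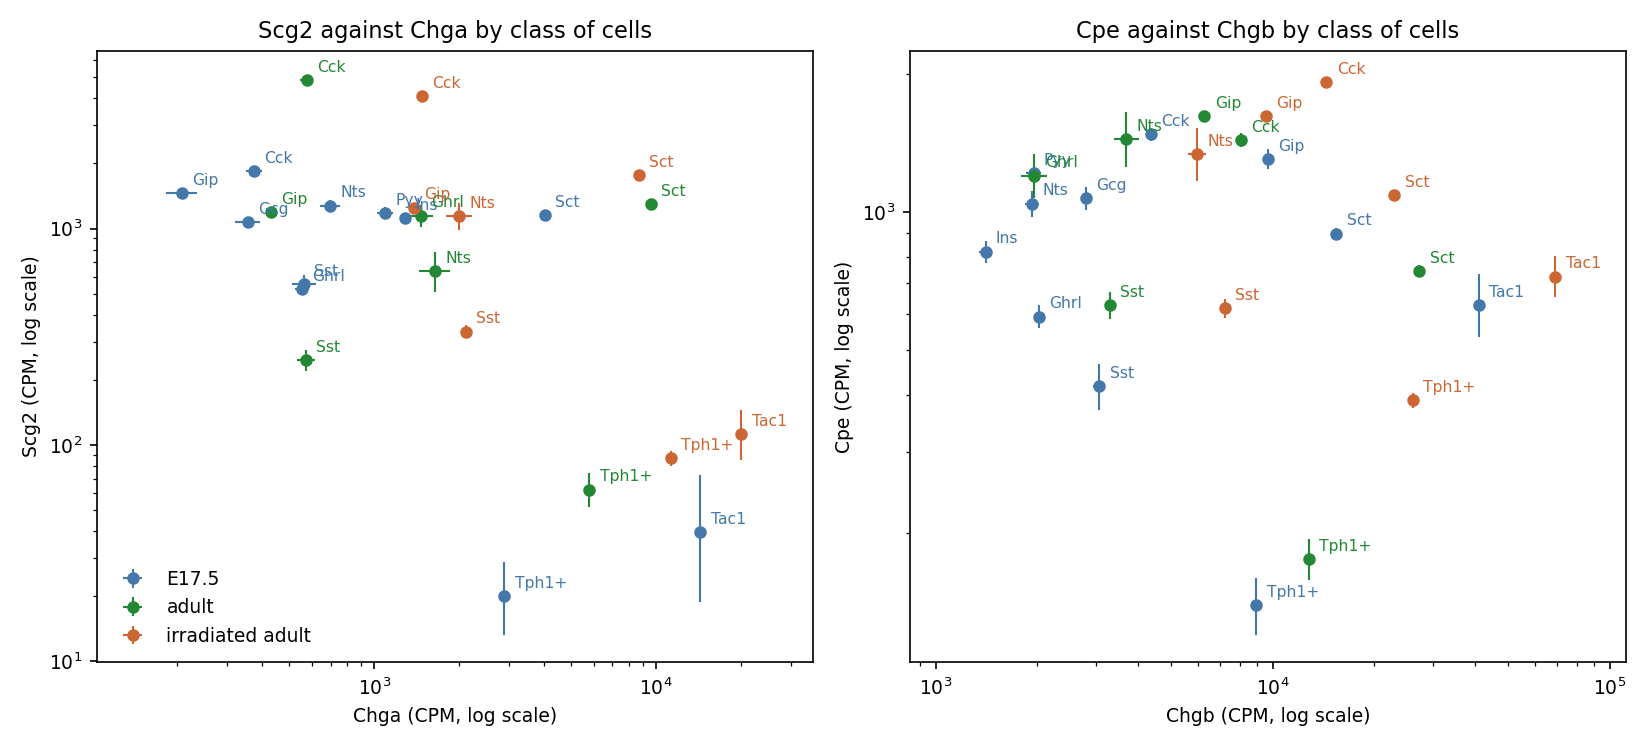
Scg2 against Chga (left) and Cpe against Chgb (right), in CPM on log axes, for each hormone-dominant or Tph1+ class of at least 30 cells; colour gives the library and bars the 95% Poisson intervals. Tph1+ and Tac1 points lie at high Chga and low Scg2, Cck points at the highest Scg2, and Tph1+ points at the lowest Cpe.

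The same contrast was present inside a single class. Among Sct-dominant cells, those with at least 3 Tph1 UMIs were set beside those with none: 291 and 202 cells (E17.5), 428 and 137 (adult), 529 and 120 (irradiated). Chga stood at 7240 against 593 CPM in the E17.5 library (12.2-fold), 11926 against 1066 in adult cells (11.2-fold) and 10788 against 1842 in irradiated cells (5.86-fold). Scg2 went the other way, with 747 against 1631 CPM, 594 against 4051 and 1070 against 4300. Cpe also did, with 632 against 1230 CPM, 573 against 1467 and 789 against 2013. So Chga was higher and Scg2 lower past 2-fold in the Tph1-positive secretin cells of all 3 libraries, and Cpe was lower past 2-fold in both adult libraries (log2 ratio -0.96 at E17.5).

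Of the 9 members with enough UMIs for this comparison in each library, 4 were higher and 1 lower at E17.5 (5.64% and 2.76% of all genes), 3 higher and 2 lower in the adult (14.1% and 3.44%), and 3 higher and 2 lower in the irradiated library (13.6% and 2.13%). The Tph1-positive cells of both adult libraries were deeper than the Tph1-zero cells, with medians of 8605 against 2972 UMIs (adult) and 9403 against 5330 (irradiated). At E17.5 they were shallower, at 6423 against 8250 UMIs. Whether depth had a part in the differences was not tested.

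The other granins spread less. Secretogranin III (Scg3, ENSMUSG00000032181, chromosome 9, 75643189 to 75684056, - strand), a binding partner of chromogranin A in the granule, ranged at E17.5 from 47.2 CPM in Tph1+ to 701 in Pyy-dominant cells. In the adult it ranged from 146 CPM in Tph1+ to 489 in Sct-dominant cells (3.34-fold), and in the irradiated library from 163 to 469 CPM. VGF (Vgf, ENSMUSG00000037428, chromosome 5, 137026392 to 137033351, + strand), a granin-like precursor of several peptides, was lowest in Sst-dominant cells at E17.5 (15.2 CPM) and highest in Tac1-dominant cells (276 CPM). In the adult Vgf lay between 24.7 CPM in Gip-dominant and 215 in Sct-dominant cells, followed by Nts-dominant cells at 186 CPM (123 to 271), whose interval overlaps that of the highest class, and Tph1+ cells at 165.

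The helpers of the convertases also had their own orders. Scg5 (ENSMUSG00000023236, chromosome 2, 113776362 to 113829121, - strand), which encodes 7B2, was lowest in Tph1+ cells at E17.5 (64.3 CPM) and in the adult (134 CPM), and highest in Nts-dominant cells at E17.5 (562 CPM) and Sct-dominant cells in the adult (478 CPM). Irradiated adult classes lay within 2.09-fold of each other for Scg5. Pcsk1n (ENSMUSG00000039278, X chromosome, 7919822 to 7924410, + strand), which encodes proSAAS, was lowest in Tph1+ cells at E17.5 (244 CPM) and in Sst-dominant cells of both adult libraries (168 and 303 CPM). Its highest class was Pyy at E17.5 (1559 CPM) and Sct in the adult (991) and irradiated adult (1472).

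Carboxypeptidase E was the enzyme with the clearest low class. Tph1+ cells, which have no dominant peptide, had 139 CPM of Cpe (E17.5), 175 (adult) and 389 (irradiated), the lowest each time among classes of at least 30 cells. Tph1-positive cells of the Sct class stood higher, at 632, 573 and 789 CPM, as did Tac1-dominant cells, at 627 (E17.5) and 724 (irradiated). At E17.5 the Tph1+ cells had a median of 17194 UMIs against 8010 in hormone-dominant cells. Gip-dominant cells had 1306, 1623 and 1619 CPM and Cck-dominant cells 1481, 1437 and 1925, and the highest class was Cck, Gip and Cck in that order of libraries. Adult Nts-dominant cells, at 1446 CPM, did not differ from the Cck-dominant ones beyond counting error. Sst-dominant cells were the second lowest, with 417, 627 and 617 CPM. Highest over lowest came to 10.7-fold, 9.26-fold and 4.94-fold.

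Pcsk1 (ENSMUSG00000021587, chromosome 13, 75089826 to 75134861, + strand) was present in every hormone-dominant class. It lay between 129 CPM in Nts-dominant and 1140 CPM in Tac1-dominant cells at E17.5, between 193 in Gip-dominant and 744 in Sct-dominant cells in the adult, and between 228 in Gip-dominant and 738 in Tac1-dominant cells in the irradiated library. Pcsk2 was high in some classes of E17.5 and low in both adult libraries. At E17.5 it stood at 1031 CPM (963 to 1103) in Pyy-dominant, 995 (946 to 1047) in Ins-dominant, 522 (471 to 578) in Sst-dominant and 256 (226 to 288) in Gcg-dominant cells, and at 60.8 CPM in Ghrl-dominant cells. The 19 Iapp-dominant cells had 1090 CPM (935 to 1264). The other classes of at least 30 cells had 12.1 CPM or less, and Nts-dominant and Tac1-dominant cells had 0 UMIs.

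As a share of Pcsk1 and Pcsk2 UMIs together, Pcsk1 made up 19.2% in Pyy-dominant, 22.1% in Sst-dominant, 27.4% in Ins-dominant and 43.6% in Gcg-dominant cells at E17.5, against 94.7% or more in Cck, Gip, Tph1+, Sct, Nts and Tac1 cells. Over all hormone-dominant cells the share was 55.3% (E17.5), 97.0% (adult) and 97.9% (irradiated). The adult classes with the most Pcsk2 were Sst at 32.6 CPM (23.6 to 43.9) and Gip at 25.5 CPM (21.4 to 30.1), whose intervals overlap, and the others lay at 6.89 CPM or less.

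Pcsk2 at E17.5 went with the islet list, though not with each of its genes. Ttr, a gene of that list, was at 4071 CPM in Cck-dominant cells, which had 12.1 CPM of Pcsk2, and at 3890 CPM in Pyy-dominant cells. Of the 106 Pyy-dominant cells, 101 had more islet-list than intestinal-list UMIs, so the Pyy values above are mostly theirs. They had 1098 CPM of Pcsk2, 1645 of Pcsk1n and 737 of Scg3, against 56.4 (3 UMIs), 301 and 188 CPM in the other 5 cells. Of the 83 Gcg-dominant cells, the 15 with more islet-list than intestinal-list UMIs had 1887 CPM of Pcsk2 (1667 to 2127) and the other 68 had 0 UMIs, a level at least 568-fold lower when 3 UMIs over the group are taken as the floor. Pcsk1 was 77.7 CPM in the first and 216 in the second, and Pcsk1n 2395 against 126 CPM (19.0-fold). Chgb was the reverse, with 452 against 3166 CPM. Of the 10 members 4 were higher and 3 lower in the islet-list cells (6.79% and 19.5% of all genes).

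The Ghrl-dominant cells divided in a similar way. The 77 with the higher islet list had 187 CPM of Pcsk2 and the 108 others 5.28 CPM (35.4-fold), with Pcsk1n at 573 against 171 CPM. Here Chgb was higher in the islet-list cells, at 3918 against 1202 CPM, the opposite of the Gcg-dominant cells. In total 4 of 9 members were higher and 0 lower (3.79% and 8.65% of all genes). Ghrelin and glucagon are made both by islet cells and by gut endocrine cells, and which of the 2 these cells were was not measured.

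Over all E17.5 hormone-dominant cells, the 504 with the higher islet list held 743 CPM of Pcsk2 and the other 1111 held 4.74 CPM, and Pcsk1 made up 26.7% and 98.3% of the pair. The islet list includes Ins1 and Ins2, which also define the Ins-dominant class. All 127 Ins-dominant cells were on the islet side and held 1526 of its 3321 Pcsk2 UMIs, so part of the pooled split follows from the list. It also includes Iapp, which adult Sst-dominant cells expressed at 8999 CPM. With Iapp left out of the list, a choice made after seeing this, 457 E17.5 cells had the higher islet list with 793 CPM and 1158 had 12.8 CPM of Pcsk2. Adult cells outside the islet list defined in this way also stood at 12.8 CPM (11.02 to 14.8), and irradiated adult cells at 9.12 CPM (7.90 to 10.5). Some classes stood above this level on the intestinal side at E17.5. The 22 Sst-dominant cells there had 312 CPM (236 to 404), against 26.0 CPM (16.8 to 38.3) in the 108 adult cells chosen the same way. With Iapp in the list only 5 E17.5 Sst-dominant cells were on the intestinal side, with 0 Pcsk2 UMIs (at most 74.3 CPM). The 57 UMIs behind the 312 CPM thus all came from cells that changed side when Iapp was left out. On the intestinal side without Iapp, 8 Pyy-dominant cells had 108 CPM. An antisense gene, Pcsk2os1, overlaps Pcsk2. Whether the counting used strand is not given in the sources used here, so the reads of the 2 cannot be told apart.

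**Figure D3:**
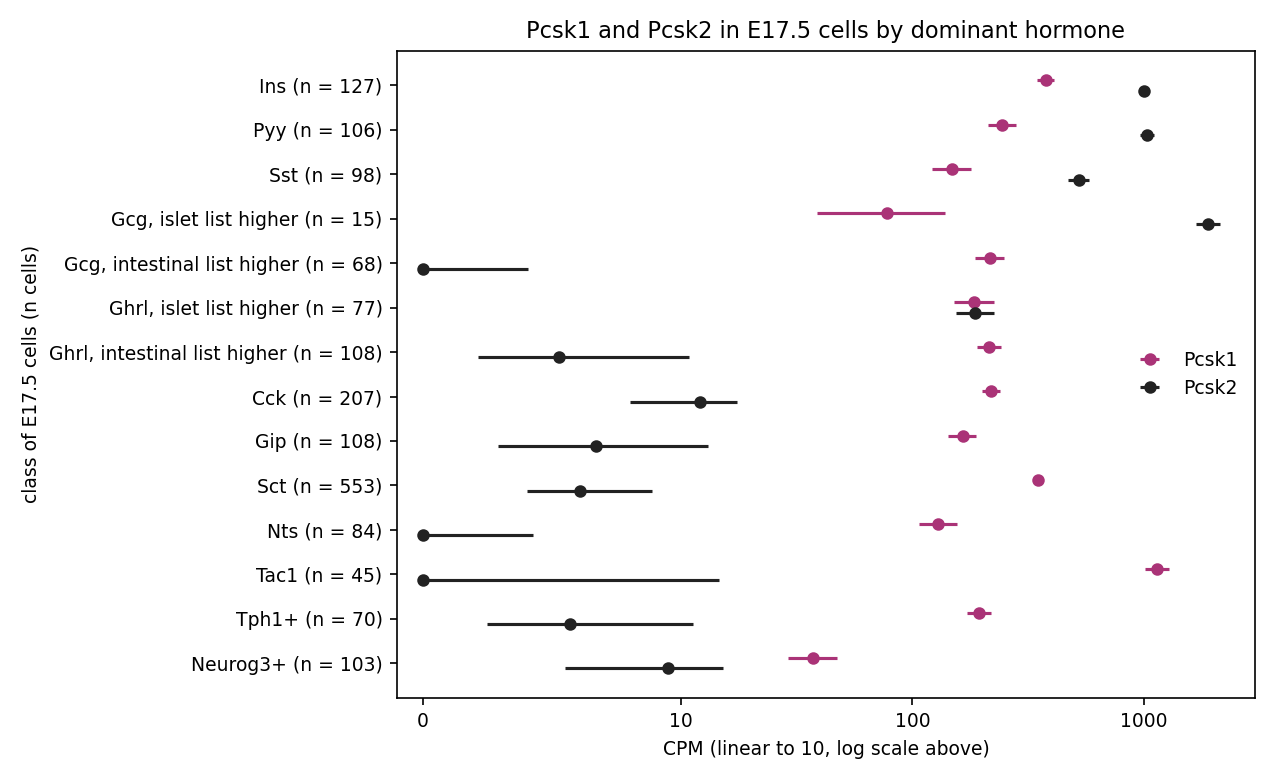
Pcsk1 and Pcsk2 in CPM (linear to 10 and logarithmic above) with 95% Poisson intervals in each class of E17.5 cells, with Gcg-dominant and Ghrl-dominant cells split by the islet and intestinal lists. Pcsk1 lies between 77.7 and 1140 CPM in the hormone classes, while Pcsk2 reaches 1887 CPM in the Gcg-dominant cells on the islet side and is at 12.1 CPM or less in Cck, Gip, Sct, Nts, Tac1 and Tph1+ cells.

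Between E17.5 and adult, individual classes differed more than the pool. The Tph1+ class had 5 of 9 members higher in the adult and 0 lower (13.8% and 18.8% of all genes): Vgf stood at 165 CPM against 49.3 at E17.5, Scg3 at 146 against 47.2, Scg2 at 62.2 against 20.01, Scg5 at 134 against 64.3 and Chga at 5790 against 2891. Each of these 5 fell under 2-fold in at least 1 alternative, with lowest log2 ratios of 0.84, 0.96, 0.96, 0.20 and 0.37. With the stricter cell filter (1000 genes, 10% mitochondrial) Vgf, Scg2 and Chga were at 0.84, 0.96 and 0.97. The adult Tph1+ cells had a median of 3625 UMIs and a mitochondrial share of 14.6%, against 17194 UMIs and 3.66% at E17.5, and the part of these in the result was not tested. Pcsk1 was higher in adult Cck-dominant cells, at 521 against 218 CPM (log2 ratio 1.25), as was Scg2, at 4844 against 1843 (1.39), which made 2 of 9 higher and 0 lower (6.42% and 5.61% of all genes). In Sct-dominant cells 2 of 9 were higher (10.3% of all genes) and 0 lower (8.67%), namely Chga, at 9564 against 4034 CPM, and Pcsk1, at 744 against 348. Taken as a mean of each cell's CPM these 2 ratios were 0.61 and 0.71. So the convertase PC1/3 transcript was above its E17.5 level in both of these classes.

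Adult Sst-dominant cells had 1 member higher and 3 lower (12.8% and 7.34% of all genes). Pcsk1n stood at 168 CPM in the adult against 609 at E17.5 (-1.85), Pcsk2 at 32.6 against 522 (-3.96) and Scg2 at 246 against 554 (-1.17), while Vgf was at 34.1 against 15.2 (1.11). The islet list exceeded the intestinal list in 93 of the 98 E17.5 and 99 of the 141 adult Sst-dominant cells. Without those cells the Pcsk2 and Scg2 ratios were 3.35 and 1.43, on only 5 E17.5 cells with 0 UMIs of Pcsk2 and 2 of Scg2. The E17.5 intervals were then 0 to 74.3 CPM for Pcsk2 and 4.88 to 146 for Scg2, so these 2 ratios give no direction. With Iapp out of the list the Vgf ratio was 0.18 and the Scg2 ratio -0.84, neither past 2-fold, while Pcsk2 stayed lower in the adult and past 2-fold. Gip-dominant cells had 2 of 10 higher (16.0% of all genes) and 0 lower (11.3%): Pcsk2, at 25.5 against 6.72 CPM, and Chga, at 431 against 208. The Chga ratio of 1.05 was 0.12 in cells without a Tph1 UMI and 0.23 with the cells of highest Scrublet (doublet) score removed. It was 0.72 as a mean of each cell's CPM and 0.85 with a hormone minimum of 2%. Without the islet side, with Iapp out of the list, it was 0.98. Nts-dominant cells had 1 of 9 higher (Chga, 1639 against 696 CPM) and 2 lower (Scg2, 634 against 1276, and Scg5, 241 against 562), each within 2-fold in at least 1 alternative, but 39.2% of all genes were lower there and 15.2% higher, with a median over all genes of -0.63.

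Pooled over hormone-dominant cells, Pcsk2 was lower in the adult by a log2 ratio of -3.91 (13.8 against 221 CPM). The ratio was -2.89 with equal weight to each of 5 classes present in both libraries, 1.16 without the cells whose islet list was higher, and 12.8 CPM stood against 12.8 CPM with Iapp out of that list. The makeup of the pool also differed, with 127 Ins-dominant and 106 Pyy-dominant cells at E17.5 and, of Pyy-dominant cells, 1 in the adult.

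The irradiated adult library was set beside the same adult library that served in the comparison with E17.5. Among the members Chga had the largest ratio in the Sst, Gip and Cck classes. It was higher in Sst-dominant cells, at 2115 CPM (2062 to 2170) against 572 (532 to 615), in Gip-dominant cells, at 1383 (1346 to 1422) against 431 (414 to 449), and in Cck-dominant cells, at 1474 (1445 to 1503) against 576 (545 to 607). These are log2 ratios of 1.88, 1.68 and 1.35, the last being 0.95 where the top hormone had to have 2 times the UMIs of the second. In Sct-dominant cells, already high in the adult, it was 8690 against 9564 CPM, and in Nts-dominant cells 1999 against 1639. Thus the classes that were low for Chga in the adult were the ones past 2-fold, and Gip-dominant cells nevertheless stayed the lowest class.

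Tph1 moved with Chga in these classes. From adult to irradiated adult it went from 133 to 403 CPM in Sst-dominant, 121 to 223 in Gip-dominant and 334 to 452 in Cck-dominant cells. In cells without a Tph1 UMI, an alternative chosen after seeing the data, the Chga ratio was 0.90 in Sst-dominant and 1.03 in Gip-dominant cells. It was 1.19 in Cck-dominant and 0.79 in Sct-dominant cells. Chga went from 194 to 361 CPM in these Sst-dominant and from 163 to 334 in these Gip-dominant cells, levels near those of tuft-like cells given below. It went from 560 to 1283 CPM in Cck-dominant and from 1066 to 1842 in Sct-dominant cells. The members past 2-fold in these cells were 0 of 10 in either direction in Sst-dominant cells (2.35% of all genes higher and 2.97% lower), 1 of 10 higher and 0 lower in Gip-dominant (1.56% and 3.16%), 1 of 9 higher and 0 lower in Cck-dominant (2.81% and 1.72%), and 0 of 9 higher and 1 lower in Sct-dominant cells (1.74% and 3.03%), the last being Vgf at -1.09. Chga outside the endocrine cells moved too: tuft-like cells, which should lack it, went from 71.3 to 296 CPM, and their Chgb from 327 to 931. Cpe in the same cells was 62.3 and 76.0 CPM. The part of this background in the class-level differences was not tested.

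Counting all members, Sst-dominant cells had 2 higher and 0 lower (3.10% and 2.31% of all genes), the other being Chgb at 7220 against 3292 CPM, whose ratio of 1.13 was 0.70 in cells without a Tph1 UMI. Gip-dominant cells had 1 higher and 0 lower (1.97% and 3.13%), Cck-dominant cells 1 of 9 higher and 0 lower (2.91% and 1.57%), and Nts-dominant (7.51% and 4.61%) and Sct-dominant cells (1.08% and 1.40%) had 0 past 2-fold in either direction. In Tph1+ cells 3 of 9 were higher and 0 lower (6.07% and 5.02%): Pcsk1n, at 773 against 305 CPM, Cpe, at 389 against 175, and Chgb, at 26050 against 12790. Chga in Tph1+ cells was 11292 against 5790 CPM, a ratio of 0.96. With a hormone minimum of 2% the ratios of Pcsk1n, Cpe and Chgb were 0.92, 0.67 and 0.56. The depth of the Tph1+ cells also differed, with a median of 9241 UMIs against 3625, and their mitochondrial share was 5.80% against 14.6%. The part of these in the result was not tested.

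**Figure D4:**
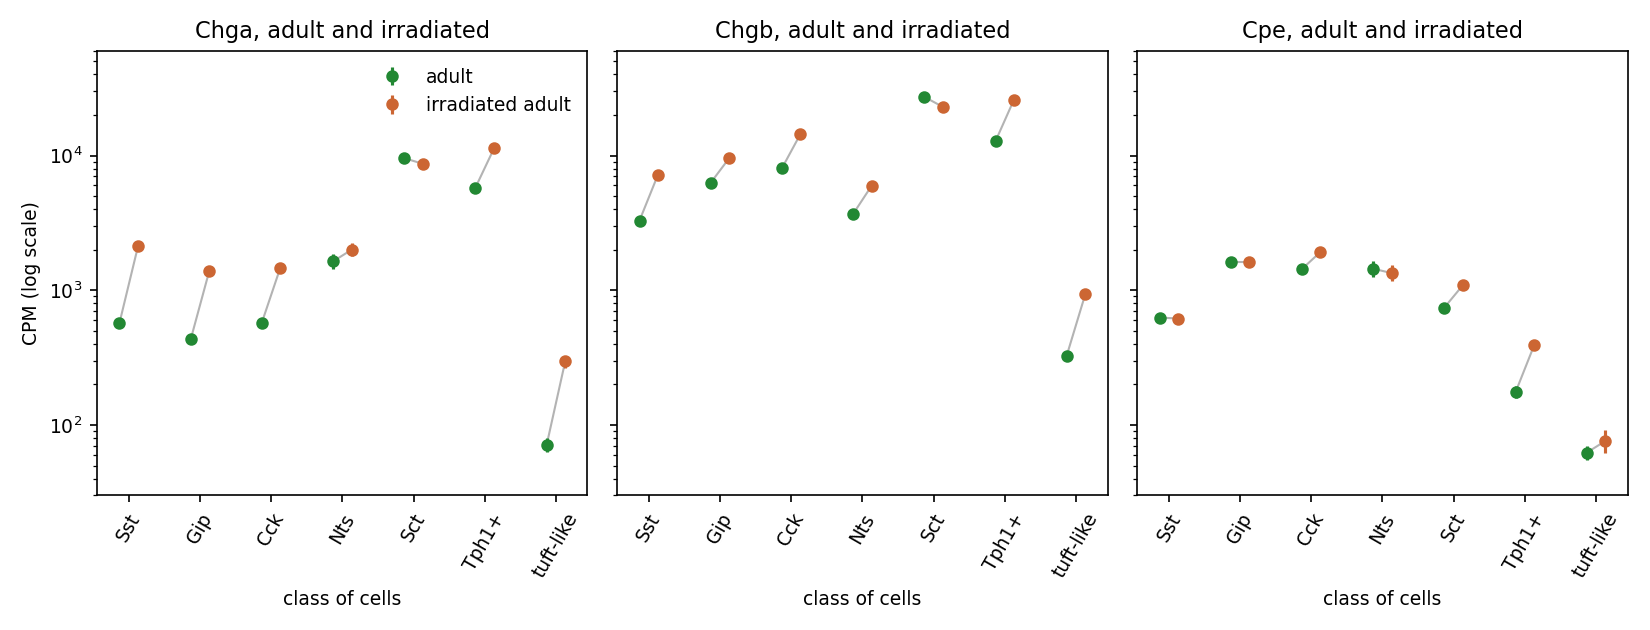
Chga, Chgb and Cpe in CPM (log scale) in each class of the adult and irradiated adult libraries, with 95% Poisson intervals, most of them smaller than the points. Chga lies above its adult level in Sst, Gip and Cck cells and in tuft-like cells, and slightly below it in Sct cells, while Cpe is nearly level in Sst, Gip and Nts cells.

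The Gcg-dominant cells were few, 13 in the adult and 27 in the irradiated library, and took no part in these counts. Their Chga was 337 CPM (263 to 426) in the adult and 2203 (2056 to 2358) in the irradiated library, and their Cpe 903 (779 to 1041) and 2597 (2437 to 2764). Both libraries had 0 UMIs of Pcsk2 in these cells, whereas Pcsk1 was 452 CPM in the 27 irradiated cells.

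The Neurog3+ cells of E17.5, numbered 103 and carry the transcript of the progenitor phase. By construction they have no dominant peptide. Chga was at 188 CPM (169 to 209) in them, against 14.2 CPM in the 609 enterocyte-like cells and 1844 CPM in hormone-dominant cells. Chgb stood at 666 CPM between 63.4 and 7551, Pcsk1n at 66.5 between 5.11 and 643, Cpe at 54.2 between 4.63 and 983, and Pcsk1 at 37.4 between 0.954 and 274. Vgf had 0 UMIs, which leaves at most 2.06 CPM, and Scg2 was at 8.94 CPM against 1152 in hormone-dominant cells.

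All 10 members were lower than in hormone-dominant cells (16.4% of all genes were lower and 9.58% higher), with a median log2 ratio of -4.28. The gap was smallest for Pcsk1 (-2.84), Pcsk1n (-3.25), Chga (-3.28) and Chgb (-3.50). It was -6.86 for Scg2, and Vgf, with 0 UMIs in Neurog3+ cells, is not ranked. Against enterocyte-like cells, 6 of the 6 members with enough UMIs were higher and 0 lower (12.1% and 11.1% of all genes), with a median of 3.42. These 6 were Chga, Chgb, Pcsk1n, Cpe, Pcsk1 and Scg2.

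**Figure D5:**
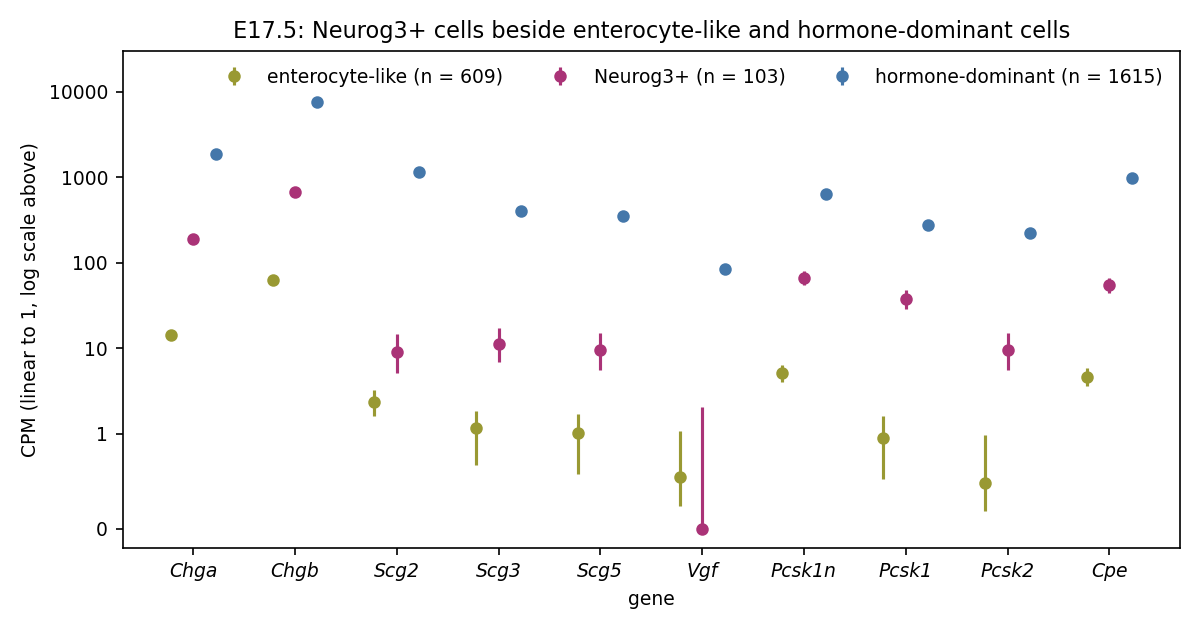
CPM (linear to 1, logarithmic above) of each gene in E17.5 enterocyte-like, Neurog3+ and hormone-dominant cells, with 95% Poisson intervals. The Neurog3+ point lies between the other two for every gene but Vgf, which had 0 UMIs in Neurog3+ cells. Each point is summed over cells, and the median Neurog3+ cell had 0 of the genes detected after thinning.

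At E12.5 few cells had UMIs of several members. Of 3655 cells thinned to 2000 UMIs, 11 (0.301%, exact Clopper-Pearson interval 0.150% to 0.538%) had at least 3 of the 10 genes detected, and all 11 had at least 4. These cells held 92.9% of the library's Chgb UMIs, 96.0% of its Pcsk2, 86.5% of its Scg3, 80.3% of its Pcsk1n and 76.0% of its Chga. The cells were chosen by detection of these same genes, so part of each share follows from the choice. Scg5 and Cpe were different. Of the Scg5 UMIs 20.7% were in these cells, and the other 4215 cells held 134 UMIs. For Cpe 6.54% of the UMIs were in them, and the others held 35.5 CPM, with a UMI in 44.6% of them.

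The 11 cells had Pcsk2 at 836 CPM (UMIs in 10 of them) and Pcsk1 at 141 CPM (in 8). By dominant hormone they were 4 Pyy, 3 Gcg, 1 Ghrl and 3 cells with none. Their islet list summed to 10506 CPM and the intestinal list to 70.5 CPM. Cdx2, the intestinal identity factor, had 1 UMI in 1 of these cells and 305 CPM in the others, whereas Pdx1, expressed in pancreas and duodenum, was at 101 CPM. The neural list was at 121 CPM against 19.2 in the other cells, and all 11 cells had UMIs of the general epithelial genes, at 1490 CPM against 3442. The 11 cells, chosen by the members themselves, were thus low in the intestinal list. Like the E17.5 cells on the islet side, they had more Pcsk2 than Pcsk1 UMIs.

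Outside the endocrine cells the genes were mostly low, with Cpe the main exception. The 1 neural-like cell at E12.5 had 1334 CPM of Pcsk1n and the 1 at E17.5 had 1723. In E17.5 mesenchymal-like cells Cpe stood at 314 CPM, 34.4% of its level in pooled hormone-dominant and Tph1+ cells, while Chga in the same cells was 4.49 CPM, 0.233% of the pool. E17.5 acinar-like cells had 26.7 CPM of Cpe and 8.05 of Chga. Enterocyte-like cells at E17.5 were under 1% of the pool for all 10 genes. Adult tuft-like cells had 1.84% of the pool for Chga, 2.45% for Chgb, 2.61% for Pcsk1 and 5.88% for Cpe.

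Other genes of the pathway were followed as 2 lists, 14 processing enzymes and 23 granule and exocytosis genes. In hormone-dominant cells, 1 of 13 tested processing genes was higher in the adult than at E17.5 and 3 were lower (11.6% and 10.0% of all genes). Pcsk7, a convertase of the secretory pathway, was the higher one, at 46.4 against 16.5 CPM. The lower ones included Qpct, the glutaminyl cyclase, at 56.4 against 319.8 CPM, and Pcsk5, at 5.90 against 13.5. Of 23 granule genes 4 were higher and 5 lower, beside the same shares of all genes. The median log2 ratio was 0.10 for the processing and 0.20 for the granule list, beside 0.05 over all genes tested. Among them Snap25, the SNARE protein, was at 227 against 81.5 CPM, the calcium sensor Syt7 at 335 against 86.6, and Ptprn, a granule membrane protein, at 129 against 54.6, while Sytl4 was at 0.411 against 29.9 and Rab3a at 23.5 against 62.6.

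Between adult and irradiated adult 0 of 13 processing genes were higher and 2 were lower (1.76% and 3.27% of all genes), Enpep at 3.23 against 18.6 CPM and Pcsk5 at 1.16 against 5.90. Of 22 granule genes 1 was higher and 0 lower, the monoamine transporter Slc18a2 at 9.99 against 3.63 CPM. In Tph1+ cells Slc18a2 was at 79.8 against 8.82 CPM, and 6 of 21 granule genes were higher there and 0 lower (6.07% and 5.02% of all genes). These are the cells whose median depth was 9241 against 3625 UMIs and mitochondrial share 5.80% against 14.6%. Of 22 granule genes 20 were lower in Neurog3+ than in hormone-dominant cells at E17.5 and 0 higher (16.4% and 9.58% of all genes), with Resp18 at 0.559 against 205 CPM. Against enterocyte-like cells 13 of the 23 granule genes passed the UMI floor, which shapes this count as it did for the members. Of these 9 were higher in Neurog3+ cells and 0 lower (12.1% and 11.1% of all genes), with Syt13 at 71.5 against 1.29 CPM. Pam, which amidates peptides after Cpe has trimmed them, was at 24.6 CPM in Neurog3+ cells, between 9.95 in enterocyte-like and 266 in hormone-dominant cells.

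Across 39 library-by-class profiles of at least 30 cells, the members other than Pcsk2 correlated with one another at Pearson r of 0.687 (Chga with Scg2) to 0.973 (Scg3 with Scg5) on log2(CPM + 1). Pcsk2 correlated with the other members at 0.157 (Vgf) to 0.498 (Scg3). The profiles share libraries and depth and include non-endocrine classes, so these values are descriptions. Among 13344 genes, the most alike to Chga were Chgb (0.956), Snap25 (0.940) and Ptprn (0.929), and to Chgb after Chga they were Pcsk1 (0.943) and Snap25 (0.941). For Scg2 they were Scgn (0.916), Scg5 (0.912) and Aplp1 (0.910). For Scg3 they were Scg5, Pcsk1n (0.964) and Pax6 (0.956), and for Scg5 Scg3, Aplp1 (0.972) and Resp18 (0.965).

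For Pcsk1 the most alike were Rundc3a (0.964), Celf3 (0.961) and Ap3b2 (0.958), for Pcsk1n Lrp11 (0.965), Syt13 (0.964) and Scg3 (0.964), and for Vgf Ptprn (0.949), Disp2 (0.943) and Scn3a (0.942). For Cpe they were Aplp1 (0.951), Scg5 (0.949) and Tspyl4 (0.947). For Pcsk2 they were its antisense neighbour Pcsk2os1 (0.938), then Dcx (0.867) and Rnf138rt1 (0.849).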

How the data were processed

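Per the file headers and the submitters' processing notes, the authors deposited raw counts of UMIs per gene and barcode from Cell Ranger 3.1.0 on mm10, not normalized. How they selected barcodes and whether counting used strand are not given in the sources used here. Genes were matched to GENCODE M21 (GRCm38) by identifier for positions (99.6% of features).

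The members, gene lists and classes were chosen with earlier results of these data known. The alternatives leaving Iapp out of the islet list, or keeping only cells without a Tph1 UMI, were chosen after seeing the data. Cells needed 500 genes and at most 20% mitochondrial UMIs. UMIs were summed over the cells of a class and scaled to CPM, with exact Poisson 95% intervals. Shares of cells used cells thinned to 2000 UMIs (shallower ones left out) and exact Clopper-Pearson intervals. Levels were compared as log2((CPM + 1)/(CPM + 1)) in genes with at least 50 UMIs in the 2 groups together, past 2-fold being called higher or lower, in classes of at least 50 cells in both libraries. The Gcg, Ghrl, Neurog3+ and Tph1 comparisons within a library used smaller groups.

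Marker-named cells needed 4 of a list's 8 genes and 0.5% of UMIs. The genes named are all members, the 3 most correlated with each (genes of at least 10 CPM in a profile), and up to 4 past 2-fold per direction of each pathway list. Doublets were kept, and an alternative removed the 4.16% to 5.04% of cells with the highest Scrublet scores. Its automatic threshold called 0% to 0.565% and was not used. Library totals before filtering were 90674425 UMIs (E12.5), 77677622 (E17.5), 38648331 (adult) and 50761353 (irradiated adult). The steps were tested on simulated data. Tools were scanpy 1.11.5 (Scrublet), pandas 2.3.3, matplotlib 3.10.9, scipy 1.17.1 and numpy 2.4.6 under python 3.11.15, with edgeR 4.0.16 (R 4.3.3) for TMM factors as an alternative. The values of 1 gene of the processing list are not reported here.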

Additional observations from a re-analysis of the deposited data

Results flagged for a closer look

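For 3 genes, classes of the same 2 libraries lay on opposite sides past 2-fold in adult over E17.5. Scg2 had log2 ratios of -1.17 in Sst-dominant and -1.01 in Nts-dominant cells against 1.39 in Cck-dominant and 1.59 in Tph1+ cells. Scg5 had -1.22 in Nts-dominant and 1.04 in Tph1+ cells. Pcsk2 had -3.96 in Sst-dominant and 1.78 in Gip-dominant cells, the latter with 8 UMIs at E17.5. With 1 library per group the difference was not tested. The median over all genes was -0.63 in Nts-dominant and -0.25 in Tph1+ cells.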

How the results depend on the processing

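No paired analysis was possible because each group has 1 library. Of 135 summary values under an alternative, 96 stayed close to the value reported (counts within 1.5 times, shares of Pcsk1 within their 95% interval) and 39 moved. That 9 of the 10 genes were highest in the irradiated library held under every alternative tried, and 11 to 15 E12.5 cells had several members. Without cells whose islet list exceeded the intestinal list, 3 ratios of adult over E17.5 changed sign. Pcsk2 went to 1.16 in hormone-dominant and 3.35 in Sst-dominant cells, and Scg2 to 1.43 in Sst-dominant cells. The Sst-dominant cells then numbered 5 at E17.5, with 0 UMIs of Pcsk2 and 2 of Scg2, so their 2 ratios give no direction. Of 26 differences past 2-fold, 5 stayed past it under every alternative: Chga in Gip-dominant cells (irradiated adult over adult), and, adult over E17.5, Pcsk1 and Scg2 in Cck-dominant, Pcsk1n in Sst-dominant and Pcsk2 in Gip-dominant cells. The Chga ratio in Gip-dominant cells was lowest, at 1.03, in those without a Tph1 UMI. Their Chga was 163 and 334 CPM, beside 71.3 and 296 CPM in tuft-like cells, which should lack it. Pcsk2 in Gip-dominant cells rested on 8 UMIs at E17.5. The cause of the losses in the other differences was not tested.

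The share of Pcsk1 in Pcsk1 and Pcsk2 at E17.5 (55.3%) was 52.5% with a hormone minimum of 2%, 48.7% where the top hormone had 2 times the second, 58.9% as a mean over cells, 70.8% from thinned cells, and 98.3% or 95.5% without cells on the islet side, with Iapp in the list or out of it. In the adult (97.0%) it was 96.1% with 2 times the second, 94.7% as a mean over cells, 97.6% with the stricter cell filter (1000 genes, 10% mitochondrial), 97.5% without the islet side and 94.5% from thinned cells. In the irradiated adult (97.9%) it was 98.2% and 97.4% with hormone minimums of 0.5% and 2%, 97.2% with 2 times the second, 97.0% as a mean over cells, 98.3% with the stricter filter, 98.8% without the islet side and 96.2% from thinned cells.

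Members past 2-fold in pooled adult over E17.5 cells numbered 1, against 2 with a 0.5% minimum, 2 with hormone, mitochondrial and alpha-defensin UMIs left out of the total, 3 with the stricter filter, 2 with equal class weights and 0 with Iapp out of the islet list. For irradiated over adult the pool gave 0, against 1 in cells without a Tph1 UMI, and the classes together 7, against 3 with a 2% minimum and 11 without the islet side. Members detected in at least 50% of hormone-dominant cells numbered 7, 5 and 7 at E17.5, adult and irradiated, against 3, 3 and 4 at 1000 UMIs, and 8 in the adult at 4000 UMIs or unthinned. Members spanning at least 5-fold over irradiated classes numbered 3, against 5 with a 0.5% minimum, 6 with 2 times the second and 6 without doublets. The processing genes past 2-fold after irradiation (2) became 1 with 200 UMIs or a pseudocount of 10 CPM, and the granule genes (1) became 0 with that pseudocount. Of the 30 most correlated genes, 17 were shared with profiles of at least 100 cells and 18 with log2(CPM + 10).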

Other observations

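Chga was also higher in Tph1-positive cells of other hormone classes than secretin. In adult Gip-dominant cells, 23 cells with at least 3 Tph1 UMIs had 6758 CPM of Chga and 958 cells with none had 163 CPM (41.4-fold), at a median depth of 4700 and 2506 UMIs. In the irradiated library the Gip-dominant cells stood at 7768 against 334 CPM (30 and 348 cells, 23.2-fold), and the Sst-dominant cells at 6247 against 361 CPM (34 and 124 cells, 17.3-fold). Cck-dominant cells of the irradiated library differed less, with 1783 CPM of Chga in 173 Tph1-positive and 1283 CPM in 201 Tph1-zero cells. Their Chgb was lower in the Tph1-positive cells, at 9641 against 20435 CPM, whereas it was higher in Tph1-positive Sst-dominant cells, at 15887 against 3685 CPM. Chga in Cck-dominant cells was 1.32-fold higher with Tph1 at E17.5 and 1.26-fold in the adult. Scg2 was within 2-fold in Cck-dominant cells (log2 ratios 0.17, 0.27 and -0.25 at E17.5, adult and irradiated). The Scg2 ratio was -0.25 (adult) and -0.78 (irradiated) in Gip-dominant cells. In Sst-dominant cells it was -1.04 (adult, 11 UMIs in 6 cells) and -0.65 (irradiated). Cpe was within 2-fold in each of these. Doublets were kept in these values, and the part of doublets and depth in them was not tested.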
